A study of Sus scrofa with 4 samples.

Results

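FST, AMH, NPR2, DCN and VIM are genes expressed by granulosa or stromal cells, and their probes were followed in pools of pig (Sus scrofa) blastocysts on 4 two-colour arrays of the pig oligonucleotide design EMPV1. Every EMPV1 probe that the platform table names for one of these 5 genes was taken, matched by spot number, which gave 5 of the 10022 genes with a named probe and 6 of the 43794 probes, 2 of them for VIM. The 5 genes were chosen from earlier results of these arrays, with their intensities and ratios in view, so their levels and their differences between pools are given as a description, with no test.

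Each array set a high NEFA pool, 10 blastocysts whose oocytes had met raised non-esterified fatty acids (NEFA), against a control pool of 10 blastocysts from control oocytes. The series text gives collection on Day 7 and Day 8, without assigning days to pools. High NEFA pools were in Cy3 and control pools in Cy5 on replicates 1 and 2, and the dyes were exchanged on replicates 3 and 4. According to the title there was co-culture with GCs grown as a monolayer; what GCs stands for, and which pools had the co-culture, is not stated. The labels call the 4 arrays biological replicates without naming separate sows or collections, so the spread given here is that between these pools and may be partly technical. Total RNA is the labelled molecule, while the protocols describe genomic DNA cut with methylation-sensitive enzymes, so intensities are given here as probe signal and not as transcript levels. In pools of whole blastocysts, fewer cells of a type and less RNA per cell cannot be told apart.

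Granulosa cells surround the oocyte in the follicle, and cumulus cells are those that stay attached to it. They exchange signals of the transforming growth factor beta family with the oocyte. Follistatin (FST) binds activins and keeps them from their receptors, and anti-Müllerian hormone (AMH) is a granulosa cell hormone of the same family. NPR2 is the receptor for C-type natriuretic peptide and makes cyclic GMP, which in the mouse follicle holds the oocyte in meiotic arrest. Decorin (DCN) is a small proteoglycan of connective tissue matrix, and vimentin (VIM) is the intermediate filament protein of mesenchymal cells. Neither FST nor VIM is restricted to granulosa or stroma, since embryonic cells can express both.

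A detection limit was set for each array and channel at 2 SD above the mean of its 153 negative controls, and a probe above it was called above background. In Cy3 the limits were 349 and 310 for the high NEFA pools of replicates 1 and 2, and 352 and 369 for the control pools of replicates 3 and 4. In Cy5 they were 232 and 247 for the high NEFA pools of replicates 3 and 4, and 211 and 205 for the control pools of replicates 1 and 2. Signals of single pools are therefore set against the limit of their own channel. The lead probes of all 5 genes, those of highest mean intensity, exceeded the limit in all 8 channels, as did 31.7% of all probes, and all 6 probes did so in at least 4 channels, the condition for testing that 56% of all probes met. The second VIM probe did so in 6 of 8 channels, 3 of 4 high NEFA and 3 of 4 control. No member spot was marked to be ignored on any array. Since the genes were chosen with their signal in view, the share above the limit is read no further.

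**Figure D1:**
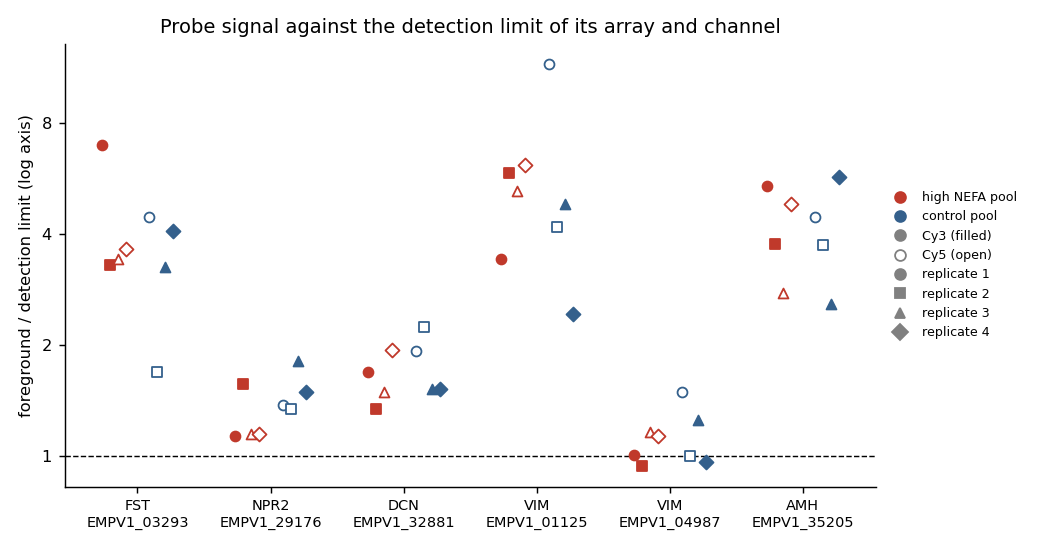
Foreground of each of the 6 probes divided by the detection limit of its array and channel (log axis), in 4 high NEFA pools (red) and 4 control pools (blue), with Cy3 filled and Cy5 open; the dashed line marks the limit. FST, AMH and the first VIM probe lay at 1.69 times the limit or more in every pool, NPR2 between 1.13 and 1.81 times, and the second VIM probe on both sides of it.

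FST was the gene with the highest fitted ratio of high NEFA over control. Its probe EMPV1_03293 had a median foreground of 2433, 1023, 797 and 898 in the high NEFA pools of replicates 1 to 4, against 936, 346, 1147 and 1508 in the control pools. As multiples of the limit these were 6.96, 3.30, 3.43 and 3.64 in the high NEFA pools, against 4.43, 1.69, 3.25 and 4.09 in the control pools. On the normalized log2 scale, with both channels of all arrays brought to a common scale, the high NEFA pools had 10.97, 9.80, 9.88 and 9.84, against 10.07, 8.86, 9.81 and 10.07 in the control pools. The high NEFA pool of replicate 1 was the highest of all 8, the control pool of replicate 2 the lowest, and the groups overlapped. The log2 ratio of high NEFA over control was 0.90, 0.94, 0.07 and -0.23 on replicates 1 to 4. It was therefore high on both arrays with the high NEFA pool in Cy3, with a mean of 0.92, and near 0 on both with the dyes exchanged, with a mean of -0.08. The fit, which takes out a dye effect common to all arrays, gave 0.42 ± 0.13 (SE, n = 4), a 1.34-fold difference with a 95% interval of 1.10 to 1.63. The interval is that of this probe alone, makes no allowance for the number of probes or for the choice of the gene, and is no test. With mean in place of median pixel intensity the ratio was 0.22.

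The dye effect comes from the same array ratios that were in view when the genes were chosen, so it too is given with no test. Cy5 over Cy3 was -0.50 ± 0.13 (SE) on the log2 scale for FST and 0.73 ± 0.22 for the second VIM probe. It was -0.23 for NPR2, 0.35 for DCN, 0.65 for the first VIM probe and -0.18 for AMH, so that the dye favoured Cy3 for some of the probes and Cy5 for others. Over the whole table, 22.8% of the 24524 probes tested passed the adjusted threshold of 0.05 for a dye effect (limma, Benjamini-Hochberg), and nothing is read from this share about the 6 probes. Subtracting the fitted dye effect, which comes from the same 4 ratios, gives both dye orientations the same mean. A common sign afterwards is therefore not the agreement of 4 separate observations. With the fitted dye effect subtracted, the FST ratios were 0.40, 0.44, 0.57 and 0.27, above 0 on all 4 arrays. NPR2 had the same sign throughout as well, while the other 4 probes did not, against 25.1% of all tested probes with 1 sign on 4 arrays after this subtraction.

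AMH showed no common direction. Probe EMPV1_35205 had a foreground of 1889, 1162, 642 and 1188 in the high NEFA pools and of 937, 763, 909 and 2110 in the control pools. In multiples of the limit it was 5.41, 3.75, 2.76 and 4.81 in the high NEFA pools, against 4.44, 3.72, 2.58 and 5.72 in the control pools. Both pools of replicate 3 were the lowest of their kind, and the groups overlapped over most of their range. The ratio was 0.51, -0.02, 0.11 and -0.33 on replicates 1 to 4, and the fit gave 0.07 ± 0.14 (SE, n = 4), with a 95% interval of 0.84-fold to 1.31-fold. Its sign turned without replicate 1, at -0.06, and without replicate 3, at -0.04.

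NPR2, the natriuretic peptide receptor, had signal close to the limit. Probe EMPV1_29176 had a foreground of 394, 487, 266 and 283 in the high NEFA pools and of 290, 274, 638 and 548 in the control pools. These were 1.13, 1.57, 1.14 and 1.15 times the limit in the high NEFA pools, against 1.37, 1.34, 1.81 and 1.48 times in the control pools. The high NEFA pools of replicates 1, 3 and 4 had lower multiples than any control pool, and that of replicate 2 lay inside the range of the controls. The ratio was -0.32, 0.19, -0.69 and -0.37 on replicates 1 to 4. The fit gave -0.30 ± 0.14 (SE, n = 4), 0.81-fold with a 95% interval of 0.66 to 1.01, and -0.12 with mean pixel intensity. With the dye effect subtracted the array ratios were -0.55, -0.04, -0.45 and -0.14.

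DCN, the matrix proteoglycan, was above the limit in every pool by a modest margin. Probe EMPV1_32881 had a foreground of 588, 415, 347 and 479 in the high NEFA pools and of 407, 457, 534 and 559 in the control pools. The multiples of the limit were 1.68, 1.34, 1.49 and 1.94 in the high NEFA pools and 1.93, 2.23, 1.52 and 1.51 in the control pools. The control pool of replicate 2 was highest and the high NEFA pool of the same array lowest. The ratio was -0.15, -0.86, -0.02 and 0.43 on replicates 1 to 4, and the fit gave -0.15 ± 0.15 (SE, n = 4), with a 95% interval of 0.71-fold to 1.15-fold. The ratio was -0.06 with mean pixel intensity and 0.03 without replicate 2.

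VIM varied most between arrays, and in opposite directions. Probe EMPV1_01125 had a foreground of 1193, 1820, 1212 and 1524 in the high NEFA pools and of 2441, 856, 1704 and 894 in the control pools. These were 3.41, 5.87, 5.22 and 6.17 times the limit in the high NEFA pools, against 11.6, 4.18, 4.84 and 2.42 times in the control pools. The control pools held both the highest and the lowest value of the 8, on replicates 1 and 4. The normalized log2 level averaged 10.40 ± 0.38 in high NEFA pools and 10.30 ± 0.92 in control pools (SD, n = 4 each). These levels are not corrected for the dye effect of the probe, 0.65, and each group held both dyes. The SDs are therefore not of pools alone. The ratio was -1.59, 0.49, 0.09 and 1.43 on replicates 1 to 4, a range of 3.02 where the median tested probe had 0.84. The residual SD of the fit, 1.24, was larger than in 99.8% of the tested probes. The fitted ratio was 0.11 ± 0.30 (SE, n = 4), with a 95% interval of 0.67-fold to 1.72-fold. Leaving out 1 array moved it between -0.41, without replicate 2, and 0.63, without replicate 1, and it was also below 0 without replicate 4, at -0.23.

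The second VIM probe, EMPV1_04987, gave a similar order of arrays from a much weaker signal. Its foreground was 350, 290, 269 and 279 in the high NEFA pools and 315, 205, 441 and 354 in the control pools. The highest multiple of the limit was 1.49, in the control pool of replicate 1, where the first probe was highest too. The ratio was -1.31, -0.38, -0.05 and 1.28 on replicates 1 to 4, lowest on replicate 1 and highest on replicate 4 for both probes, with opposite signs on replicates 2 and 3. The fitted ratio was -0.11 ± 0.22 (SE, n = 4), and 0.20 with mean pixel intensity. The local background around this spot was raised on all arrays, at 117 to 192 in Cy3 and 93 to 110 in Cy5, above that of 97.9% and 99.1% of all probes. Around the first VIM spot, Cy3 background was 48 to 65 and Cy5 background 37 to 49. With 1 background per array and channel in place of the local one, the second probe had ratios of -0.77, -0.30, -0.07 and 0.48, smaller but in the same order, and the first probe had -1.62, 0.51, 0.07 and 1.45.

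**Figure D2:**
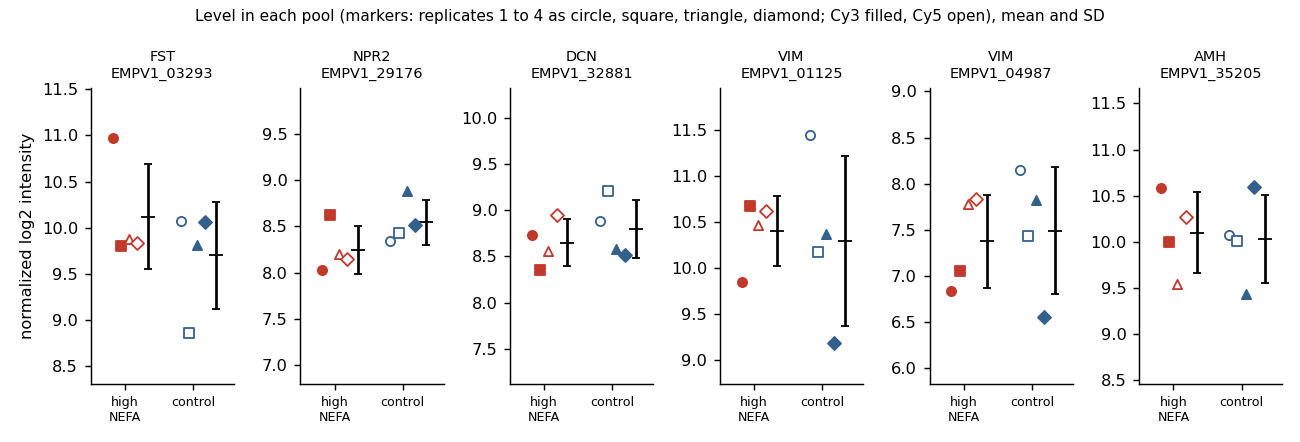
Normalized log2 intensity of each probe in 4 high NEFA pools (red, left) and 4 control pools (blue, right), with the mean and SD beside the points; all panels span the same number of log2 units, each around its own centre. The groups overlapped for all 6 probes, and the first VIM probe had its widest spread among control pools, with an SD of 0.92 against 0.38 in high NEFA pools. Levels are not corrected for the dye effect of each probe, and each group held both dyes.

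The 6 probes were also set beside the whole table. None of them had the same sign on all 4 arrays before the dye effect was subtracted, where 7.82% of all tested probes did, 3.76% higher and 4.06% lower in high NEFA pools. None had levels that separated the 4 high NEFA pools from the 4 control pools, against 1.13% of all tested probes. Over the whole table, 0 of 24524 probes passed the adjusted threshold of 0.05 in the limma fit (0%), with 1573 (6.41%) at an unadjusted p under 0.05. Because the genes were chosen with this contrast in view, nothing is read from these counts.

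**Figure D3:**
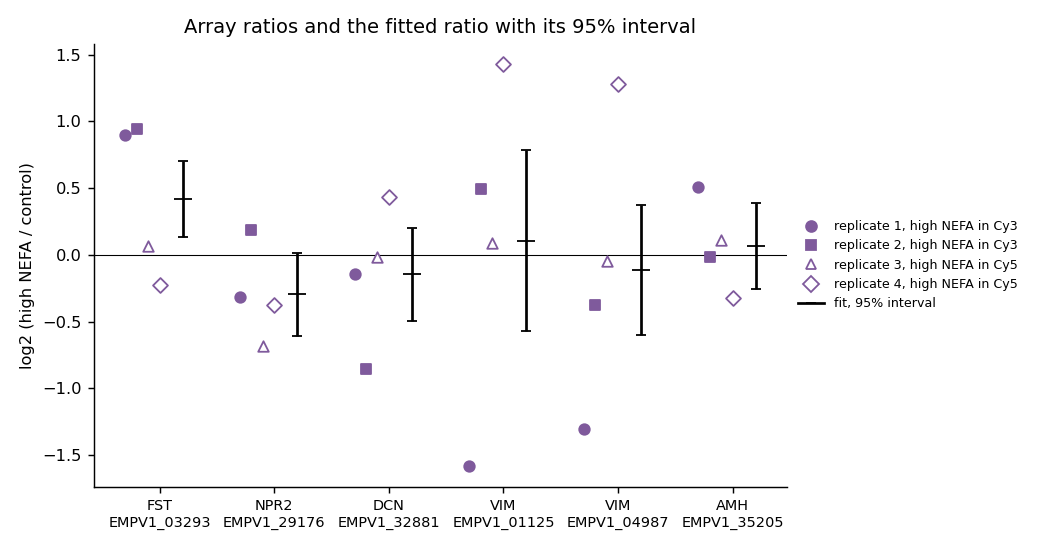
Log2 ratio of high NEFA over control on each array (points; filled with the high NEFA pool in Cy3, open in Cy5) and the fitted ratio with its 95% interval (black) for the 6 probes. FST had its highest values on replicates 1 and 2, while the ratios of both VIM probes ran from below -1.3 on replicate 1 to above 1.2 on replicate 4.

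Other genes of granulosa and cumulus cells were on the same arrays. Of all 10022 genes with a named probe, 38.6% exceeded the limit in all 8 channels, 62.1% did so in at least 4 and 13.3% in none, and the counts of each list stand beside these shares with no test. Of 23 granulosa genes listed, 13 had a named probe; FSHR, CYP19A1, FOXL2, INHA, STAR and 5 others were not analysed here. One of the 13, the cyclin CCND2, was above the limit in all 8 channels, 6 were so in 4 to 7, 4 in 1 to 3 and 2 in none. The last 2 were SERPINE2, a secreted protease inhibitor, with a foreground of 126 to 307 in high NEFA pools and 115 to 288 in control pools, and the oestrogen receptor ESR2. INHBA, the activin subunit that FST binds, exceeded the limit in 1 channel. Of 7 cumulus genes, 0 exceeded it in all channels and 3 in at least 4. As intensities of different probes are not comparable, these counts say only which probes gave signal. The ratios of listed genes depended on the pixel summary: of 33 named here by rule, 26 were over 1.5 times closer to 0 with mean pixel intensity and 10 changed sign.

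Among the 7 granulosa genes tested, 1 was higher and 6 were lower in high NEFA pools; their median ratio was -0.19, beside -0.01 for all 6226 tested genes. None passed the adjusted threshold. With mean in place of median pixel intensity that median was -0.02. GATM, which makes the creatine precursor guanidinoacetate, had 0.25 ± 0.13 and the nuclear receptor NR5A2 had -0.21 ± 0.13. Each was above the limit in 4 of 8 channels. The array ratios of GATM were -0.54, -0.45, 0.82 and 1.15 on replicates 1 to 4, with 1 sign for each dye orientation. Opposite signs by dye orientation were common, in 41.7% of all tested probes. CDH2, N-cadherin, had -0.16 ± 0.13, from 7 channels above the limit, or 0.02 with mean pixel intensity. The summed normalized intensity of the 7 was 1700 to 2026 in high NEFA pools and 1735 to 2670 in control pools. Brighter probes weigh more in such a sum, here CCND2 the most. The highest control sum was on replicate 1, where CCND2 had a ratio of -1.70. Of the 3 cumulus genes tested, GREM1, a secreted antagonist of bone morphogenetic proteins, had -0.20 ± 0.16, the matrix proteoglycan VCAN -0.12 ± 0.13 and PTGS2, a prostaglandin synthase, 0.13 ± 0.17. With mean pixel intensity GREM1 had 0.02, VCAN 0.01 and PTGS2 0.02. VCAN entered the test with 1 of 4 high NEFA and 4 of 4 control channels above the limit, so mainly through the control pools. The 3 cumulus genes summed to 690 to 974 in high NEFA pools and to 729 to 918 in control pools.

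Stromal genes were mixed. Of 18 listed, 16 had a named probe, 4 of them above the limit in all 8 channels. These 4 were the receptor PDGFRA, the smooth muscle actin ACTA2, the actin-binding TAGLN and fibronectin, FN1. LUM, PDGFRB and LOX exceeded the limit in no channel, and the collagen chain COL1A1 did so in 3. Of 9 tested, 6 were higher and 3 lower in high NEFA pools, with a median of 0.08, and 0 passed the adjusted threshold. TAGLN had -0.19, -1.38, 0.88 and -0.28 on replicates 1 to 4, in another order of arrays than VIM, with a residual SD above that of 98.9% of tested probes. FN1 had a fitted ratio of -0.18 ± 0.14, or 0.03 with mean pixel intensity. COL1A2 had 0.26 ± 0.13 from 4 channels above the limit, or -0.001 with mean pixel intensity. MGP, an inhibitor of matrix calcification, entered the test with 3 of 4 high NEFA and 1 of 4 control channels above the limit, so mainly through the pools where it was high. It had 0.56 ± 0.23, with 1.95 on replicate 2 and -0.44 on replicate 3. Its ratio was 0.16 without replicate 2 and 0.96 without replicate 1, where it passed the adjusted threshold in a fit of 3 arrays that rests on replicate 2. The summed intensity of the 9 stromal genes was 4016 to 7826 in high NEFA pools and 4675 to 7295 in control pools, so that the groups overlapped. TAGLN and FN1, the brightest of them, weigh most in this sum.

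Markers of the blastocyst itself were counted in the same way. Of 11 lineage genes with a named probe, 9 exceeded the limit in all 8 channels; CDX2, POU5F1 and NANOG were not analysed here. The trophectoderm factor GATA2 had a foreground of 10834 to 17728 in high NEFA pools and 9563 to 18608 in control pools, with a ratio of 0.04 ± 0.14. TFAP2C, another trophectoderm factor, had 11855 to 25286 in high NEFA pools and 10258 to 23711 in control pools. Its ratio was 0.37 ± 0.15, but 0.18 with mean pixel intensity and 0.18 without replicate 1. The inner cell mass genes LIN28A and UTF1 had ratios of 0.40 ± 0.13 and 0.36 ± 0.13, which were 0.22 for LIN28A and 0.07 for UTF1 with mean pixel intensity. Of the 10 lineage genes tested, 8 were higher and 2 lower in high NEFA pools, with a median of 0.25, and 0 passed. That median was 0.11 with mean pixel intensity, and of all 6226 tested genes 2940 were higher and 3286 lower. Of 11 oocyte genes, 3 exceeded the limit in all channels: GDF9, an oocyte growth factor, with a ratio of -0.33 ± 0.13 that was -0.03 with mean pixel intensity, and the zona pellucida genes ZP2, with 0.09 ± 0.13, and ZP4, with -0.23 ± 0.15. The egg factor ZAR1 had 0.30 ± 0.13, or 0.05 with mean pixel intensity, and the 7 oocyte genes tested had a median of 0.00. ZAR1 entered the test with 4 of 4 high NEFA and 1 of 4 control channels above the limit, so mainly through the pools where it was high. The part of cells from the co-culture in the signal of the 6 probes was not tested.

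**Figure D4:**
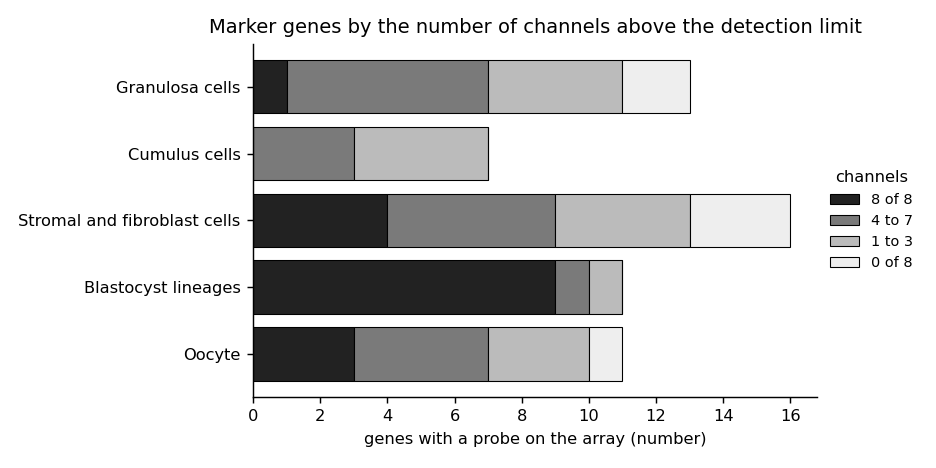
Number of genes of each fixed marker list with a named probe, split by how many of the 8 channels exceeded the detection limit. Of the blastocyst genes 9 of 11 exceeded it in all 8 channels, against 1 of 13 granulosa, 0 of 7 cumulus, 4 of 16 stromal and 3 of 11 oocyte genes, beside 38.6% of all genes.

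The partners of the 5 genes in their own pathways were measured on the same arrays. Of 8 tested genes of activin signalling, 2 were higher and 6 lower in high NEFA pools, with a median of -0.09 that turned to 0.02 without replicate 3. The receptor ACVR2B had 0.02 ± 0.13, and the signal transducers SMAD2 and SMAD4 had -0.10 ± 0.17 and -0.20 ± 0.15. Of 8 genes on the AMH side, 2 were higher and 6 lower in high NEFA pools, and their median was -0.11. The lists are not separate, since ACVR1 and SMAD4 were counted in both. GDF9 of the activin list is also an oocyte gene above, and AMHR2 also a granulosa gene. The AMH receptor AMHR2 had -0.19 ± 0.14 from 5 channels above the limit, and the type I receptors BMPR1A and ACVR1 had 0.41 ± 0.14 and -0.08 ± 0.13. SMAD1, which carries this signal to the nucleus, had 0.08 ± 0.19. For NPR2, 2 of 7 pathway genes with a named probe were tested: the receptor NPR1 had 0.07 ± 0.13 and the clearance receptor NPR3 had 0.33 ± 0.16, while its ligand gene NPPC was not analysed here. For DCN, 3 of 13 were tested, all with a ratio above 0 and a median of 0.06. Among them were TGFB3 with 0.06 ± 0.13 and the related proteoglycan ASPN with 0.03 ± 0.13. With mean pixel intensity the DCN median was -0.001, and the activin and AMH medians were both -0.02. ACVR1, ACVR2B, NPR1 and TGFB3 then changed sign. None of the genes in these lists passed the adjusted threshold in the fit of all 4 arrays.

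Of 4 genes tested with VIM as filament proteins, 2 were higher and 2 lower in high NEFA pools, with a median of 0.04. The nuclear lamin gene LMNA had 0.31 ± 0.13, or 0.11 with mean pixel intensity, and the glial filament gene GFAP 0.10 ± 0.16. The epithelial keratin KRT19, with signal in all 8 channels, had -1.06, 0.10, -0.16 and 0.83 on replicates 1 to 4. The granulosa list gene CCND2 had -1.70, 0.18, 0.01 and 0.68. Both ran from lowest on replicate 1 to highest on replicate 4, as VIM did, with a residual SD larger than in 98.4% of tested probes for KRT19 and in 99.4% for CCND2. KRT19 is a keratin of epithelia such as trophectoderm and is on the blastocyst list. CCND2 and KRT19 were picked out for this comparison after their values were seen.

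**Figure D5:**
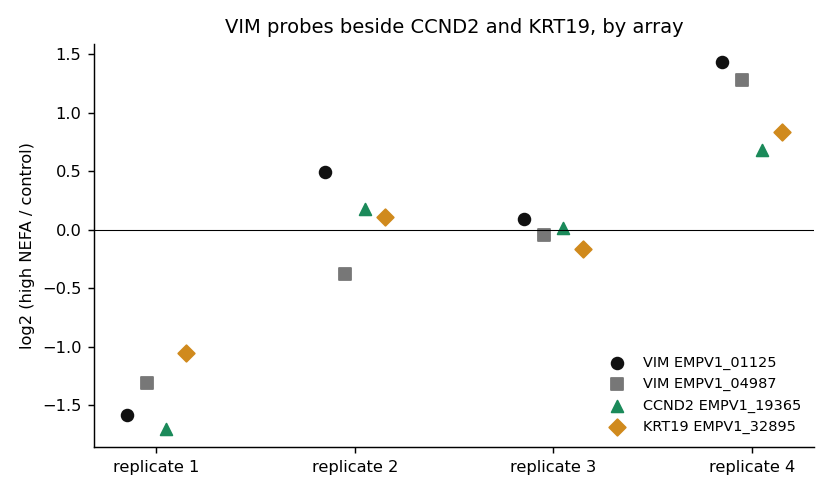
Log2 ratio of high NEFA over control on each of the 4 arrays for both VIM probes, CCND2 and KRT19. All 4 probes were lowest on replicate 1 and highest on replicate 4, from -1.70 to -1.06 on the first and from 0.68 to 1.43 on the last.

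For each lead probe, the 2 genes of most similar pattern over the 8 pools were sought among 3861 genes above the limit in all channels, by the Pearson correlation of normalized intensities with the mean of each dye removed. With 8 points and so many candidates, high values come easily, and the 2 channels of an array share its hybridisation. FST was nearest to SNRPD3, a core spliceosome protein (r = 0.99, n = 8 pools), and to C7H6orf106 (r = 0.98). SNRPD3 itself had a ratio of 0.38 ± 0.13. VIM was nearest to BCAS4 and AIG1, both at r above 0.98, with array ratios of -0.87, -0.01, 0.24 and 0.75 for BCAS4. NPR2 was nearest to WISP2 and WRAP53, AMH to GRIN2C and JPT2, and DCN to FBXW4 and BPHL, at r between 0.93 and 0.99.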

How the data were processed

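Per the file headers, each deposited array file gives for 45220 spots the intensity, as pixel median and mean, of spot and surroundings in Cy3 (532 nm) and Cy5 (635 nm), with no correction or scaling; no source used here names the image software. The authors' series matrix holds deposited log2 ratios, which tracked the scanner files' Cy5 over Cy3 (correlation 0.975 to 0.994, column medians 0.0022 to 0.016); how it was scaled and centred is not stated, and it served as an alternative. The submitters' processing notes name limma.

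Median intensities were corrected with normexp (offset 50) and loess in limma 3.58.1 (R 4.3.3). Marked spots, 17 to 60 an array, were left out. Levels by pool add Aquantile scaling. Probes above background in at least 4 of 8 channels, 24524 in all, entered 1 limma fit with exposure signed by dye and a dye intercept, leaving 2 residual degrees of freedom plus 7.87 from moderation; p-values are two-sided, and the fit was tested on simulated data. Arrays correlated at 0.46 to 0.62 in Cy5 over Cy3, with or without the same dye orientation. The number of arrays limits the precision, and the median SE was 0.13.

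Of the probes, 13146 had 1 gene symbol in the platform table, 0 several and 30648 none; 218 older symbols were updated through RefSeq. A gene is represented by its brightest tested probe. Named are all member probes, and per list the 2 genes of smallest p and the 2 of most signal, besides genes named for lack of signal. The members and the 10 gene lists, of 129 genes, were chosen with earlier results of these data known. Alternatives covered background, pixel summary, normalization, dye term, filter, the authors' ratios and each array left out. No genome build is named, so no coordinates are given.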

Additional observations from a re-analysis of the deposited data

Results flagged for a closer look

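Of 18 groups of 4 values examined for the 6 probes (array ratios, high NEFA levels and control levels), 1 held a value far from the others. The high NEFA pool of replicate 1 had an FST level of 10.97, where the other high NEFA pools had 9.80 to 9.88, and its gap made up 0.934 of the range of the group, above the critical value of Dixon's test for 4 values. Chance flags about 1 in 20 such groups, so 1 flag among 18 is about the number that chance gives. Since the genes were chosen with these levels in view, the flag is a description and no test. Without replicate 1 the fitted FST ratio was 0.43, beside 0.42 with all arrays.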

How the results depend on the processing

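The fitted ratios of the 5 lead probes moved by less than their SD over arrays under all 13 alternatives each. Among these, Aquantile scaling and the fit without a dye term left every member ratio as it was. The SD is also a wide measure, at 0.59 for FST and 1.26 for the first VIM probe, so that a ratio can change sign within it. FST ranged from 0.22 to 0.44 over the other settings and from 0.35 to 0.49 with 1 array left out, and NPR2 from -0.33 to -0.12 and from -0.42 to -0.17, both without a change of sign. AMH, DCN and the first VIM probe changed sign only with 1 array left out, over -0.06 to 0.20, -0.32 to 0.03 and -0.41 to 0.63. The second VIM probe turned to 0.20 with mean pixel intensity, 0.12 without replicate 1 and 0.22 without replicate 3, and exceeded a limit of 3 SD in 3 channels in place of 6. Probes past the adjusted threshold numbered 6 with plain subtraction, 4 with an offset of 16, 3 with the authors' ratios, 5 without the filter on dim probes and 22 to 77 with 1 array left out, and 0 of the 6 member probes were among them. Of the listed genes, 0 to 1 passed with 1 array left out, MGP without replicate 1. With mean pixel intensity the ratios of 29 of 33 named list genes lay closer to 0, with a median size of 0.04 in place of 0.20. The granulosa median was then -0.02 in place of -0.19, the blastocyst median 0.11 in place of 0.25 and NR5A2 -0.03 in place of -0.21. Aquantile scaling and the fit without a dye term moved none of the list values, and both are included in the counts that follow. Signs changed in 28 of 429 recomputed ratios of named list genes, and 127 of 130 list medians moved by less than their spread over arrays. The cause of these changes was not tested.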

Other observations

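A low ratio on replicate 1 together with a high ratio on replicate 4, as VIM had, was looked for in other genes. The other arrays did not enter the rule, so the genes found need not share the order of the VIM ratios. Variable genes without this contrast between replicates 1 and 4, such as TAGLN, are left out. Of 6215 genes with a value on all arrays, 49 (0.788%) had a ratio of high NEFA over control under -0.8 on replicate 1 and over 0.8 on replicate 4, bounds set from the VIM values themselves, so the count is a description. Besides VIM and KRT19 they included CDKN1A, a cell cycle inhibitor induced by p53, with -0.95, 0.52, -0.10 and 1.79 on replicates 1 to 4, and PDLIM2, an actin-associated adaptor, with -0.93, 0.15, -0.05 and 0.85. CFL1, the actin-severing cofilin, had -0.86, -0.47, 1.21 and 1.13, and FLNC, a filamin that crosslinks actin, had -0.93, -0.44, 1.14 and 0.89. Both had opposite signs by dye orientation, as did 41.7% of all tested probes. Clusterin, CLU, had -1.04, -1.25, 1.07 and 1.29 and a fitted ratio of 0.01 ± 0.13, since its array values followed the dye. The genes named from the 49 were picked by no fixed rule, so no shared function is read from them.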
